A study of Mus musculus with 6 samples.

Results

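Forkhead factors are transcription factors that share a winged-helix DNA-binding domain and differ in where and when they act. The chromatin around 10 of their genes, Foxc1, Foxc2, Foxd1, Foxl2, Foxf1, Foxj2, Foxo1, Foxo3, Foxp1 and Foxm1, was described in mouse nephron progenitor cells, the stem-like population of the outer kidney that forms the epithelium of the nephrons. A region belonged to a gene when its midpoint lay in the gene body or within 50 kb of it, by RefSeq gene spans. This gave 39 of the 43523 distinct accessible regions of the series, at 9 of the 10 genes. Accessibility was measured by ATAC-seq, which uses the Tn5 transposase to cut and tag DNA that is not packed away, and a higher count means a more open region. All cells came from CD1 mice, an outbred strain, and the labels name no transgene or treatment. There were 3 libraries of embryos at E14.5 and 3 of newborns at P0. Kidneys of a litter were pooled, and progenitors were selected from the digested cortex with beads against the surface integrin Itga8. In such bulk libraries, fewer cells with a region open and less opening per cell cannot be told apart. The comparison asked which forkhead loci were open in these cells and whether their accessibility differed between the midgestation and the newborn kidney.

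In the developing kidney, Foxd1 is best known as a marker of the cortical stroma, the interstitial cells around the nephron progenitors. Foxc1 and Foxc2 act in the early kidney mesenchyme, and Foxc2 also in podocytes, the filtering cells of the glomerulus. Foxf1 is a factor of visceral mesenchyme and Foxl2 one of the ovary. Foxo1 and Foxo3 are held out of the nucleus when insulin and growth factor signalling through PI3K and Akt is active, and turn on genes of cell-cycle arrest and stress resistance when it is not. Foxm1 drives genes of mitosis in dividing cells. Foxp1 is a repressor with roles in many lineages, and Foxj2 a broadly expressed activator.

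Depth ran from 6492996 counts in regions (P0 replicate 2) to 12292629 (P0 replicate 3), and the 39 regions had at least 32 counts in every library. The cells were checked by regions within 1 kb of the start sites of marker genes. Such regions were found for 6 of 9 nephron progenitor markers, Six2 and Itga8 among them, for 4 of 9 stromal, 2 of 8 endothelial, 5 of 8 ureteric, 4 of 6 podocyte and 0 of 6 immune markers. The progenitor markers without one were Eya1, Meox1 and Crym. No start site was placed for Eya1 or the endothelial Cdh5, so a region could not be found for them. A marker without such a region is thus not shown to be closed. An open start site does not show that a gene is expressed, and a minority of cells of another type can contribute to a bulk library.

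Of the 10 genes, 7 had an accessible region over their start site: Foxc1, Foxj2, Foxm1, Foxp1, Foxo1, Foxd1 and Foxl2. The Foxm1 start site was not among the RefSeq promoter sequences and was placed at the gene end under the region listed as its promoter. That this region covers it was therefore set in advance. At Foxp1 the region covered the most upstream of the start sites that RefSeq lists. No start site was placed for Foxc2 or Foxf1, and none of the regions analysed reached either gene. No region analysed lay within 50 kb of Foxo3. The accessibility of these start sites was thus not analysed here. The sequences just upstream of 5 of the open start sites are shown because they span the range of levels described next, from Foxc1, the highest, to Foxl2, the lowest, with Foxd1 as the stromal marker and Foxo1 and Foxp1 as the genes whose start-site regions carry forkhead motif names in the deposited annotation. They are the 250 bases before the start site from RefSeq (GRCm38.p6), 5′ to 3′ on the strand of the gene. Capitals mark each match, on either strand, to TGTTTA (a forkhead core), GGGCGG (a GC box) or CCAAT.
Foxc1, chr13:31806396-31806645, plus strand: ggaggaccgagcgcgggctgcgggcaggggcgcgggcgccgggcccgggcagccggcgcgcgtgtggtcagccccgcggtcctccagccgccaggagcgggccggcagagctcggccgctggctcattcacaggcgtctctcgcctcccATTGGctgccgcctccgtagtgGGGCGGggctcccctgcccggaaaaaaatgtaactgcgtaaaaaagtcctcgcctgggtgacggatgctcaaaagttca
Foxl2, chr9:98955357-98955606, plus strand: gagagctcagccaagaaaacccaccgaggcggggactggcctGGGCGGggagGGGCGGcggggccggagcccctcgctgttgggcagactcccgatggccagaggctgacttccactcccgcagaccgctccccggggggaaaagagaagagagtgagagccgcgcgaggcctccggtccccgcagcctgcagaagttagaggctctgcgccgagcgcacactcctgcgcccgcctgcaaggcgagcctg
Foxd1, chr13:98353995-98354244, plus strand: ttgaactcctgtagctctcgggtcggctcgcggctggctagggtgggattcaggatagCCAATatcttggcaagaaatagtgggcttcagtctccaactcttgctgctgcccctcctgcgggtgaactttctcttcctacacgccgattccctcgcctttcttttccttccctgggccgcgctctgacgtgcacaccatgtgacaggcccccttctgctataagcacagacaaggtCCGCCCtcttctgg
Foxo1, chr3:52268087-52268336, plus strand: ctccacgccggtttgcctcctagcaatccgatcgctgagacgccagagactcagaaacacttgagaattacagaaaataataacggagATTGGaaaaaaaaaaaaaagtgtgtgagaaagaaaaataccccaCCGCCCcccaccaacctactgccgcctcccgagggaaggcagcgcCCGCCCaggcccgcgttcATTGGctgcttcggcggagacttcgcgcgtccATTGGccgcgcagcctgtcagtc
Foxp1, chr6:99520994-99521243, minus strand: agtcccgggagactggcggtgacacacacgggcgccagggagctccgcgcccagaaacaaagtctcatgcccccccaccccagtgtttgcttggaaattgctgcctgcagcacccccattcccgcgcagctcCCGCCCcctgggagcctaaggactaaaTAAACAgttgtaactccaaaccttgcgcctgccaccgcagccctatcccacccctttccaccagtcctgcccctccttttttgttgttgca

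These upstream sequences held more G and C than the median promoter, to differing degrees. Foxc1 and Foxl2 each held 70.8% G and C, and Foxp1, Foxd1 and Foxo1 60.8%, 57.2% and 56.0%, against a median of 52.4% over 32851 RefSeq promoters of the same length. Foxc1 and Foxl2 thus stood above 91.7% of these promoters, Foxp1 above 73.9%, Foxd1 above 64.7% and Foxo1 above 61.3%. Each of the 5 held at least 1 GC box, which 32.7% of all promoters held, and Foxo1 held 3 matches to CCAAT, found in 33.9% of promoters. TGTTTA stood in the Foxp1 sequence, on the opposite strand, 91 bases before the start site, and in none of the other 4. Of all promoters, 12.0% held TGTTTA and 3.17% the longer core TGTTTAC, which contains it and which none of the 5 held. A match describes letters in this window and is not evidence of binding.

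Levels were compared between genes per length, as CPM (each library's counts scaled to a common total, with TMM normalization) per kb of region. The Foxc1 region, from 31805245 to 31807644 on chromosome 13 (mm10), was the most open per length of the 7 start sites. It had 15.1 ± 3.27 CPM per kb (SD over 6 libraries). This lay above 58.9% of all 14097 promoter regions. Foxj2, Foxm1 and Foxp1 followed, with 12.4 ± 1.12, 11.3 ± 2.22 and 11.0 ± 1.61 CPM per kb, close to the median promoter region at 12.8. The Foxp1 value is that of the longest of 3 nested regions, and the shorter ones had 11.9 and 12.9 CPM per kb, so its place among Foxj2 and Foxm1 depends on which is taken. Foxo1 had 9.75 ± 1.35, Foxd1 8.76 ± 1.54 and Foxl2 7.03 ± 0.754 CPM per kb. Foxd1 thus stood above 23.1% and Foxl2 above 8.91% of promoter regions. For scale, the 6 nephron progenitor markers with a start-site region ran from Osr1, above 15.2% of promoter regions, to Wt1, above 73.1%, with Six2 at 56.0%. The 4 stromal markers ran from 39.8% (Lum) to 76.7% (Dcn). Without division by length the order of the forkhead start sites differed. Foxp1, in a region of 3502 bp, was then highest, with a mean of 36.7 CPM at E14.5 and 40.3 at P0. Foxc1 had 34.7 and 37.7 CPM. Foxl2, in a region of 3700 bp, had 26.9 and 25.2 CPM, above Foxm1 (25.4 and 23.9) and Foxd1 (22.8 and 21.8).

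The order held in part beyond the spread between libraries. Foxc1 exceeded Foxj2 in 6 of 6 libraries, by 0.26 ± 0.23 (mean ± SD) on the log2 scale. It did not exceed the shortest nested Foxp1 region in every library. The lowest value of that region was 10.84 CPM per kb, and Foxc1 had 10.78 in P0 replicate 2. The remaining neighbours in the order crossed in at least 1 library: Foxj2 exceeded Foxm1 in 5 of 6, Foxm1 exceeded Foxp1 in 3, Foxp1 exceeded Foxo1 in 4, Foxo1 exceeded Foxd1 in 3 and Foxd1 exceeded Foxl2 in 5. P0 replicate 2, the shallowest library, gave the lowest value at 4 of the 7 start sites, those of Foxc1, Foxd1, Foxj2 and Foxm1.

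**Figure D1:**
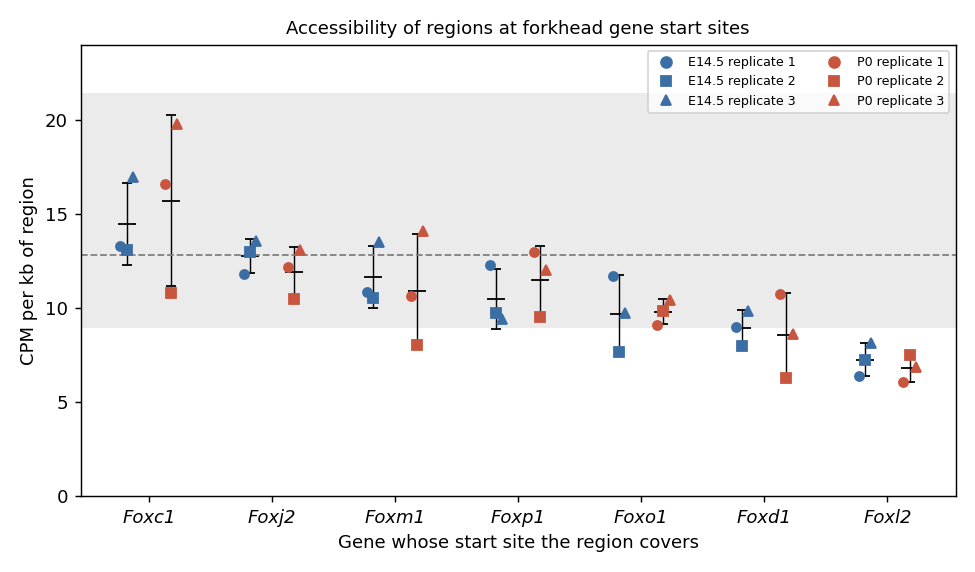
CPM per kb of the region over each start site, in each of the 6 libraries (points, coloured by stage and shaped by replicate), with the mean and SD of each stage (black, n = 3). The dashed line is the median of all promoter regions (12.8) and the grey band runs from their lower to their upper quartile (8.97 to 21.4). E14.5 and P0 points overlap at every gene, and all Foxl2 points lie below the band.

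No start-site region differed between the stages by edgeR's quasi-likelihood test. Their log2 fold changes (P0 minus E14.5) ran from -0.10 at Foxj2 to 0.14 at Foxp1, with adjusted p-values from 0.779 to 0.978, and the values of the stages overlapped at all 7. Within 2 standard errors the differences spanned -0.52 (Foxm1) to 0.59 (Foxc1), so changes smaller than that cannot be told from none. A region that did not pass is not thereby shown to be unchanged. At the Foxd1 start site, replicates 1, 2 and 3 had 22.9, 20.4 and 25.1 CPM at E14.5 and 27.4, 16.0 and 22.0 CPM at P0. At Foxo1 the values were 36.4, 23.8 and 30.2 CPM at E14.5 and 28.3, 30.6 and 32.4 CPM at P0. In both genes the P0 values lay among the E14.5 values or on both sides of them.

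Over all regions, 2059 of 43523 differed between the stages at an adjusted p under 0.05 (4.73%), 778 of them higher at P0 (1.79%). Leaving out single libraries moved that count between 339 (without E14.5 replicate 3) and 2987 (without E14.5 replicate 2), with 474 without P0 replicate 1 and 1099 without E14.5 replicate 1. Of the 39 forkhead-locus regions 2 passed (5.13%), a share near that of all regions, and both were higher at P0. They lay within Foxp1 and at the 3′ end of Foxm1, and DESeq2 and limma-voom called the same 2 of the 39. Without E14.5 replicate 1, E14.5 replicate 3 or P0 replicate 1, 0 of the 39 passed, and without P0 replicate 2 or 3, 1 did. At an unadjusted p under 0.05 there were 6 of 39 regions, 5 of them higher at P0, where all regions gave 18.7%. The stages did not overlap in 7 of the 39 regions, where 24.2% of all regions had no overlap. The 39 log2 fold changes had a median of 0.05, next to 0.01 for all regions, and 34 of them were within 0.5 of 0.

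**Figure D2:**
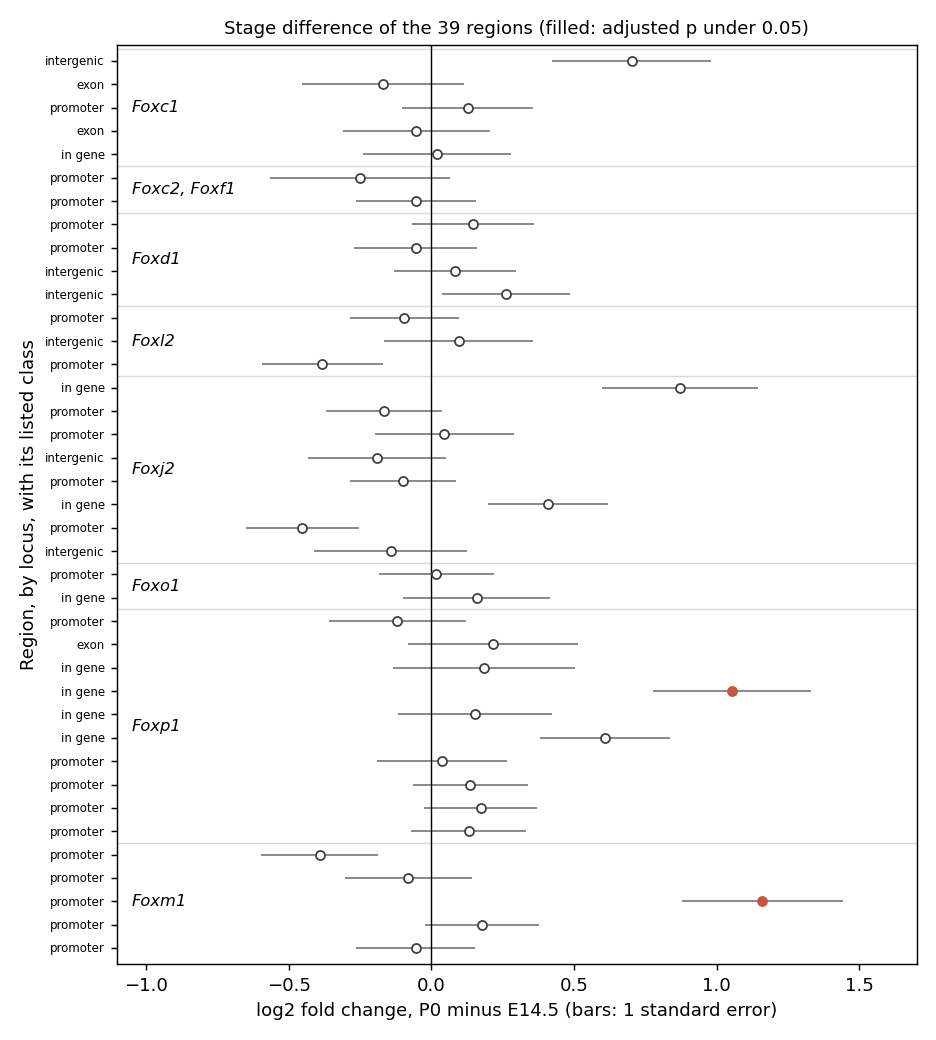
Log2 fold change (P0 minus E14.5, horizontal axis) of each of the 39 regions, grouped by locus in the order of position and labelled with its listed class. Bars are 1 standard error, and the filled points are the regions with an adjusted p under 0.05, at Foxp1 (1.05) and Foxm1 (1.16).

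The Foxm1 region, from 128374723 to 128375731 on chromosome 6, covers the last part of the Foxm1 gene, 11.7 kb from its start, and is listed in the deposited annotation as the promoter of 4933413G19Rik. RefSeq places the gene Tex52 there too, so the region cannot be assigned to Foxm1 alone. It had 8.78, 11.2 and 6.66 CPM in E14.5 replicates 1, 2 and 3, and 28.2, 13.9 and 17.5 CPM in the P0 replicates. Each P0 library lay above each E14.5 library, with P0 replicate 1 far above the others. The mean rose from 8.88 ± 2.28 to 19.9 ± 7.43 CPM (SD over 3 libraries per stage), with log2 fold change 1.16 (SE 0.28, edgeR adjusted p = 0.0286). Without P0 replicate 1 the log2 fold change was 0.81 and the adjusted p 0.24. The call was also lost without E14.5 replicate 1 (log2 fold change 1.15, adjusted p = 0.0894) or E14.5 replicate 3 (log2 fold change 0.99, adjusted p = 0.178).

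The start site of Foxm1, on the same chromosome (128361774 to 128363957), changed by -0.08 on the log2 scale (SE 0.22). It shares its region with the start of Rhno1, so both genes' promoters contribute to its counts. The most open region per length at this locus was a promoter region overlapping Tulp3, from 128355086 to 128356567. It had 36.1, 37.0 and 40.4 CPM at E14.5 and 27.8, 22.5 and 35.7 CPM at P0, with no overlap of the groups (log2 fold change -0.39, SE 0.20, adjusted p = 0.328). The regions within 50 kb of 14 Foxm1 target genes of mitosis, such as Ccnb1, Plk1 and Aurka, numbered 50, and 0 of them passed by edgeR, where 4.73% of all regions did. At an unadjusted p under 0.05 there were 3 (6.00%, below the 18.7% of all regions), all lower at P0, and the DESeq2 Wald test called 1. Their median log2 fold change was -0.17.

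Foxp1 had 10 regions spread along a long gene body, or 8 with the nested ones at its start site counted once, as many as Foxj2. The region that passed lies inside the gene and outside its exons, from 99019337 to 99020149 on chromosome 6, 8149 bp from an internal start site that RefSeq lists among 3 for this gene. It had 3.80, 4.64 and 4.55 CPM in E14.5 replicates 1, 2 and 3, and 9.06, 8.93 and 9.08 CPM in the P0 replicates. The libraries of each stage were close together and the stages did not overlap. The mean rose from 4.33 ± 0.465 to 9.02 ± 0.0811 CPM (SD over 3 libraries per stage), with log2 fold change 1.05 (SE 0.28, edgeR adjusted p = 0.0411). The region is small and weakly covered, with 32 to 115 counts per library. Its adjusted p rose above the threshold when any library except E14.5 replicate 2 was left out, to between 0.0671 and 0.177, with log2 fold changes from 0.97 to 1.09.

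A second region inside Foxp1, from 99439438 to 99440974, had 8.54, 9.37 and 10.3 CPM at E14.5 and 12.1, 16.3 and 14.7 CPM at P0, again without overlap, but did not pass (log2 fold change 0.61, SE 0.23, adjusted p = 0.152). The deposited annotation lists it under Eif4e3, while RefSeq places it in Foxp1. The most upstream start site lay under 3 nested regions of 3502, 3186 and 2792 bp that share most of their counts, with log2 fold changes of 0.14, 0.17 and 0.13. The internal start sites had no region within 1 kb. The most open Foxp1 region per length was at 99485021 to 99486476, with 18.1 CPM per kb and a log2 fold change of 0.04 (SE 0.23).

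**Figure D3:**
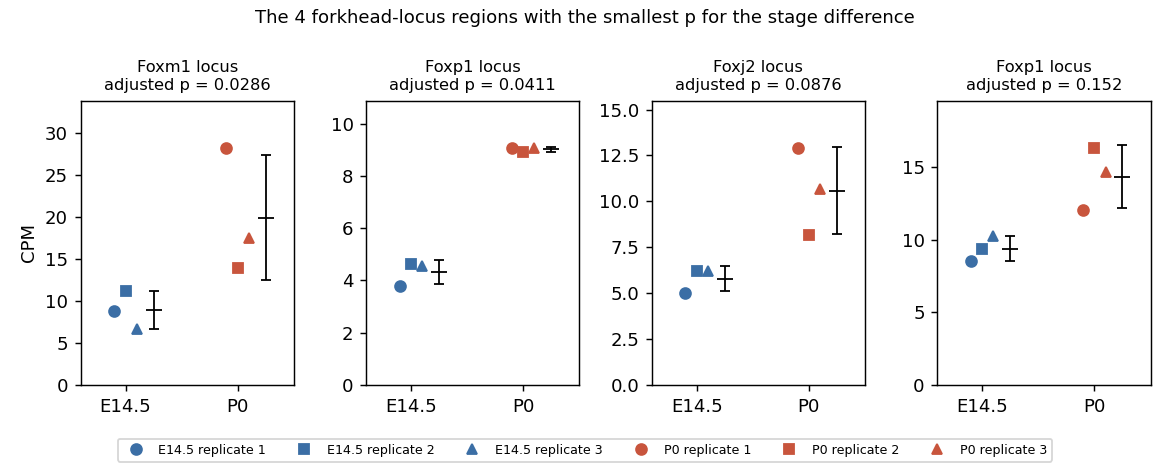
CPM in each library (points) for the 4 regions with the smallest p, with the mean and SD of each stage (black, n = 3) and each vertical axis on its own scale. The stages do not overlap in any of the 4. The P0 points of the Foxp1 region with an adjusted p of 0.0411 lie between 8.93 and 9.08 CPM, those of the Foxm1 region between 13.9 and 28.2.

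Around Foxj2, 8 regions were found and 0 passed by edgeR, with 2 at an unadjusted p under 0.05, where all regions gave 4.73% and 18.7%. The locus adjoins Slc2a3, which encodes a glucose transporter. A region inside Slc2a3, from 122795191 to 122795945 on chromosome 6, came closest: it had 4.98, 6.22 and 6.19 CPM at E14.5 and 12.9, 8.17 and 10.7 CPM at P0 (log2 fold change 0.87, SE 0.27, adjusted p = 0.0876). At Necap1, a promoter region had the largest difference in the other direction, with 48.5, 37.6 and 52.2 CPM at E14.5 and 35.7, 29.8 and 35.3 CPM at P0 (log2 fold change -0.45, adjusted p = 0.23). The most open of all 39 regions per length lay between Slc2a3 and Foxj2, from 122810475 to 122812184, 8000 bp before the Foxj2 start site. At 75.2 CPM per kb it stood at the 99.4th percentile of all regions, although it is not listed as a promoter. It had 129, 125 and 157 CPM at E14.5 and 137, 79.4 and 144 CPM at P0, so the stages overlapped (log2 fold change -0.19, SE 0.24). A region within Foxj2, outside its exons and 5786 bp from the start site, was the next most open of the locus at 27.5 CPM per kb, and the deposited annotation marks it as a FANTOM enhancer.

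**Figure D4:**
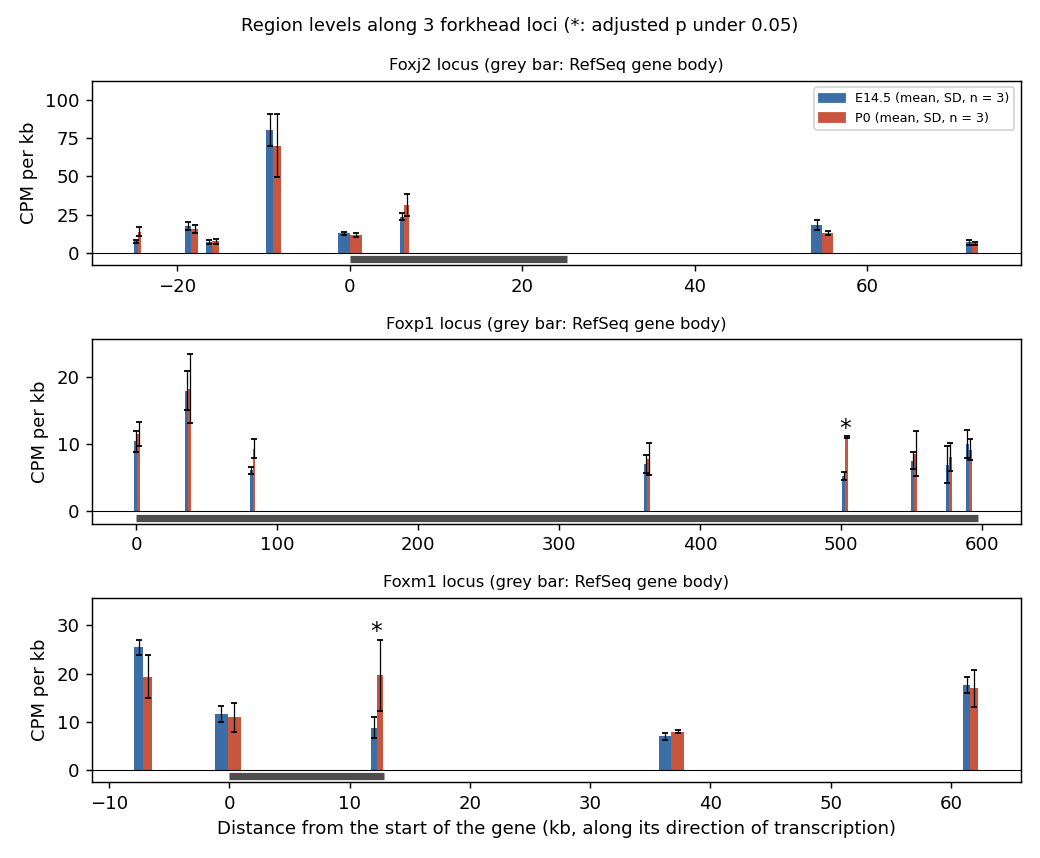
Mean CPM per kb (bars, with SD, n = 3 per stage) of the regions at Foxj2, Foxp1 and Foxm1 against the distance from the start of the gene in kb. E14.5 and P0 bars stand side by side at each region, narrow regions are drawn wider than they are, and only the longest of the nested regions at the Foxp1 start is drawn. The asterisks mark the Foxp1 and Foxm1 regions that passed, and the tallest bars are those of the region between Slc2a3 and Foxj2.

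The mesenchymal and stromal factors Foxc1, Foxc2, Foxf1 and Foxd1 and the ovarian factor Foxl2 had 14 regions between them. Of these 0 passed by edgeR and by DESeq2, where 4.73% of all regions passed by edgeR, and 1 had an unadjusted p under 0.05, against 18.7% of all regions. That region is intergenic, from 31759662 to 31761759 on chromosome 13 and 45.9 kb from Foxc1. It had 6.76, 10.9 and 13.8 CPM at E14.5 and 21.1, 12.0 and 17.8 CPM at P0, with overlap of the stages (log2 fold change 0.70, SE 0.28, adjusted p = 0.183). The Foxc1 start site is also listed as a FANTOM enhancer, and its values were 31.9, 31.4 and 40.8 CPM at E14.5 and 39.8, 25.9 and 47.4 CPM at P0.

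Foxc2 and Foxf1 are neighbours on chromosome 8, and their windows shared the same 2 regions, both promoters of other genes in the annotation. The region at 121107551 to 121108797 is listed for Mthfsd and had 14.0, 8.67 and 9.58 CPM at E14.5 and 8.02, 5.45 and 13.1 CPM at P0. The region at 121124572 to 121126325 lay 6.55 kb from Foxc2 and 37.3 kb from Foxf1 and had 15.2, 15.9 and 22.0 CPM at E14.5 and 16.9, 16.6 and 17.5 CPM at P0. The stages overlapped in both, with log2 fold changes of -0.25 (SE 0.31) and -0.05 (SE 0.21).

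At Foxd1, 2 intergenic regions lay beyond the gene, at 98365216 to 98367207 and 98390399 to 98392307 on chromosome 13. They were about as open per length as the start site, with 8.38 and 8.72 against 8.76 CPM per kb, and both carried forkhead motif names in the annotation: Foxq1 and Foxj2 in the nearer one, Foxp3 in the farther one. Their log2 fold changes were 0.08 (SE 0.21) and 0.26 (SE 0.22). Stromal markers gave a summed start-site level of 44.8 to 69.4 CPM per kb over the E14.5 libraries and 60.2 to 68.5 over the P0 libraries. At Foxl2, the start site was the least open of the 7 per length. The most open region of the locus was the promoter of Faim, with 52.7, 52.1 and 54.9 CPM at E14.5 and 42.4, 29.5 and 50.1 CPM at P0 (log2 fold change -0.38, SE 0.21, edgeR adjusted p = 0.364). The stages did not overlap at Faim, but the P0 values were spread widely.

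Foxo1 had 2 regions. The one over the start site, from 52267412 to 52270518 on chromosome 3, is listed under the overlapping gene Gm20402 and carries 5 forkhead motif names, Foxo3, Foxo1, Foxp2, Foxo4 and Foxd1. The second lies inside the gene at 52326794 to 52329835 and was the least open of all 39 per length, at 4.22 CPM per kb. Its values were 13.3, 10.3 and 12.6 CPM at E14.5 and 10.0, 18.8 and 12.0 CPM at P0 (log2 fold change 0.16, SE 0.26).

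The PI3K and Akt pathway that controls Foxo proteins was examined through 19 genes, all with regions within 50 kb. Of their 83 regions 5 passed (6.02%, against 4.73% of all regions), 4 higher and 1 lower at P0. The higher ones lay in Irs1, an adaptor of the insulin receptor (0.95, adjusted p = 0.0434), and near Irs2, Pik3ca and Pik3r1, with log2 fold changes of 1.26, 0.98 and 1.19. The median log2 fold change of the 83 regions was -0.04. Without E14.5 replicate 3 or P0 replicate 1, 0 of them passed, and without E14.5 replicate 1 or P0 replicate 2, 1 did, the lower one. The 4 higher calls were thus lost in each of these refits. Among 60 regions of 16 Foxo target genes, such as Cdkn1b, a cell-cycle inhibitor, and Sod2, an enzyme against oxidative stress, 0 passed by edgeR and by DESeq2, where 4.73% of all regions passed by edgeR, and 3 had an unadjusted p under 0.05 (5.00%, against 18.7%).

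The other 34 forkhead genes had 108 regions, of which 1 passed (0.926%, against 4.73% of all regions). It lies in Foxp2, from 15256782 to 15258369 on chromosome 6. Its level was 20.5 ± 3.72 CPM in the 3 E14.5 libraries and 8.46 ± 1.66 CPM in the 3 P0 libraries, a log2 fold change of -1.26 (SE 0.23, edgeR adjusted p = 0.00756). Without E14.5 replicate 3 or P0 replicate 1, 0 of the 108 passed, and without E14.5 replicate 2 or P0 replicate 2, 2 passed. The passing regions inside Foxp1 and Foxp2 went in opposite directions. Genes with no start site placed could not be counted for start-site regions. A region lay within 1 kb of the start site of 14 of the 34 genes, the highest at Foxn2, Foxo6 and Foxp2 with 36.6, 23.5 and 16.0 CPM per kb and the lowest at Foxi3, Foxk1 and Foxe3 with 6.77, 7.87 and 7.95. By the difference of log2 CPM per kb over the 6 libraries, the closest of these to Foxc1 was Foxd2, with a root mean square difference of 0.11, and the closest to Foxm1 was Foxp4, with 0.13.

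Summed over the regions of a locus, counted once where nested, the stages overlapped at all loci except Foxl2. A two-sided exact permutation test of 3 libraries against 3 cannot go below 0.1, so no locus could pass. The Foxl2 sums were 83.9, 88.5 and 93.8 CPM at E14.5 and 73.1, 69.0 and 83.5 CPM at P0, the mean going from 88.7 ± 4.95 to 75.2 ± 7.48 CPM between the stages (exact permutation p = 0.1, adjusted over 8 loci 0.8), and Faim held most of that sum. The other 7 loci had exact permutation p-values from 0.4 to 1.0.

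Of the 39 regions, 22 were promoters in the annotation and 6 were intergenic. The rule chose regions in or near genes, so the promoter share of 56.4% cannot be read against the 32.4% of all regions, and the regions chosen the same way at the other forkhead genes had 50.9%. Forkhead motif names were listed in 11 of them (28.2%, against 21.0% of all regions), 6 of these at Foxp1 with the 3 nested ones counted, and in neither of the 2 regions that passed. The median length was 1540 bp, against 1599 bp over all regions. In the authors' deposited table, 4 of the 39 were classed as opening at P0 and 0 as closing, where 2.86% of all regions were opening. These were the 2 regions that passed and the regions near Foxj2 and Foxc1, with adjusted p-values of 0.0491 (Foxm1), 0.0705 (Foxp1), 0.0799 (Foxj2) and 0.0976 (Foxc1) in the authors' deposited table.

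The 6 nephron progenitor start sites summed to 73.8 to 77.0 CPM per kb at E14.5 and 69.5 to 88.1 at P0. Beside the 4.73% of all regions that passed, 3 of the 32 regions near the nephron progenitor markers did (9.38%) and were lower at P0, 2 at Eya1 and 1 in Itga8, the protein used for selection. Of the stromal regions 1 of 22 passed (4.55%), higher at P0 near Lum, and of the endothelial ones 3 of 30 (10.0%), 2 higher and 1 lower. None of the ureteric, podocyte or immune regions passed by edgeR, with 5 of 25, 4 of 24 and 1 of 17 at an unadjusted p under 0.05, where all regions gave 18.7%. The 4 podocyte start sites summed to 41.3 to 42.3 CPM per kb at E14.5 and 31.7 to 40.4 at P0, without overlap. The endothelial sums were 18.8 to 25.3 and 20.7 to 25.8, and the ureteric sums 91.6 to 106 and 78.4 to 93.8. Their part in the Foxp1 and Foxm1 differences was not tested. Just inside the 50 kb limit lay the Itfg2 promoter region, 48.7 kb from Foxm1, with log2 fold change -0.06, and just outside it an intergenic region 51.2 kb from Foxo1, with 0.28.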

How the data were processed

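Chromatin accessibility was measured in 6 libraries from nephron progenitors of up to 24 pooled kidneys per litter, with 50000 cells transposed per library, per the labels' protocols. Whole-number counts per region and library were deposited. The build is mm10, per the submitters' processing notes. The aligner, peak caller, counting rule, duplicate removal and Tn5 shift are not given in the sources used here, and their effect was not assessed. The table also held the authors' log2 fold change and mean log2 expression, a score (the t statistic) with log odds, and a p-value with an adjusted p-value. Their model is not given in the sources used here, and only its class and adjusted p are quoted. The header of its FANTOM column names another mouse build, so those marks may be misplaced.

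Of 45489 rows, 1966 repeated a region and were dropped, and 0 sample columns were unmatched. Gene spans and promoter sequences were from RefSeq (GRCm38.p6, the assembly of mm10). Sequences matched 7 of the 10 genes, and start sites were taken from them. A gene without one, such as Foxm1, took as its start site the gene end under a region listed as its promoter. Where neither end or both ends qualified, none was placed. Table identifiers were named through 28296 pairs in the table. All regions were fitted with edgeR 4.0.16 (TMM, filterByExpr, quasi-likelihood F test, stage as the only term, R 4.3.3) and p-values adjusted by Benjamini-Hochberg over all of them at 0.05. The standard error was the log2 fold change divided by the square root of F. The fit was tested on simulated data. The members and lists were chosen with earlier results of these data known. All 10 genes are named, with each region that passed, the region at the start site (within 1 kb), and those with the highest level per kb and smallest p at each locus. Other regions at these loci were named after their values were seen. Other forkhead genes are named by the 3 highest and 3 lowest start sites and by regions that passed, pathway genes by regions that passed, of which 1 is not reported here. Alternatives were DESeq2 1.42.0, limma-voom 3.58.1, other scalings, filters and windows, a replicate block, repeated rows kept and each library left out. The labels do not say that libraries of a stage shared no handling, so p-values measure the spread between these litters.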

Additional observations from a re-analysis of the deposited data

How the results depend on the processing

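The 2 passing regions at the forkhead loci kept their direction under all 14 refits, and the start-site levels moved by less than the spread between libraries. The replicate numbers did not pair the libraries: same-numbered deviations correlated at 0.0666, -0.1398 and 0.0767, and not every library correlated best with its own number. With the replicate block 1 of the 39 regions passed, higher at P0, and the Foxp1 region had an adjusted p of 0.07 at a log2 fold change of 1.06, while the Foxo regulators had 3 calls, 2 higher. Counting a region only at its nearest start site left 1 member call, higher at P0, and 3 at Foxo regulators, 0 of them lower. Foxo regulators had 3 calls (2 higher) within 10 kb and 2 (1 higher) in gene bodies, since fewer regions enter. Other forkhead genes had 2 calls, 1 higher, with total-count scaling and with the DESeq2 Wald test, and 4 calls, 2 higher and 2 lower, at a threshold of 0.1. Foxm1 targets had 1 call, lower, with DESeq2 and at 0.1. At 0.1, 3490 of all regions passed, 1599 higher.

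Leaving out each library gave 339 to 2987 calls over all regions, 56 to 1692 higher and 283 to 1381 lower, the fewest without E14.5 replicate 3. The ranges were 0 to 2 for the forkhead loci, all higher, and 0 to 2 for other forkhead genes (0 to 1 higher, 0 to 2 lower). They were 0 to 6 for Foxo regulators (0 to 5 higher, 0 to 1 lower), 0 to 2 for Foxo targets (0 to 1 in each direction) and 0 to 1 for Foxm1 targets, lower.

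Differences near 0 turned in sign. With total-count scaling the Foxc2 region at 121124572 had a log2 fold change of 0.0048 and the Foxd1 start site 0.0038, and within 10 kb the Foxd1 sum had a log2 ratio of -0.0012. Leaving out libraries, start sites ranged from -0.087 to 0.33 (Foxc1), -0.27 to 0.11 (Foxd1), -0.14 to 0.17 (Foxo1) and -0.33 to 0.091 (Foxm1). Other regions ranged from -0.15 to 0.13 (Foxc2, 121124572), -0.35 to 0.033 (Foxj2, 122810475), -0.13 to 0.32 (Foxo1, 52326794) and -0.15 to 0.24 (Foxp1, 99485021), and locus sums from -0.20 to 0.040 (Foxj2), -0.072 to 0.19 (Foxo1) and -0.094 to 0.16 (Foxm1). The cause was not tested. At these depths changes within 2 standard errors of 0 could not be resolved.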
